A study of Homo sapiens with 10 samples.

Results

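The alpha-arrestins ARRDC1, ARRDC2, ARRDC3 and ARRDC4 and the related thioredoxin-interacting protein TXNIP were followed across 5 siRNA groups of HEK-293, an established line from human embryonic kidney. All 5 genes were found by their platform gene symbol, each with 1 probe set, among 18404 genes and 32321 probe sets on Affymetrix expression arrays. The set was chosen by an earlier result in these same arrays, the opposite changes of ARRDC3 with 2 siRNAs against one long non-coding RNA. The values of ARRDC3 in those comparisons are therefore given as a description, with no test, and the counts of changed members there support nothing further. The other 4 genes entered by family name, with earlier results of these data known.

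The study silenced 2 long non-coding RNAs by transient transfection of unmodified HEK-293 cultures, and RNA was taken 48 hours later. The groups were a control siRNA at 10 nM, LOC440173 siRNA #1 at 10 nM, LOC440173 siRNA #2 at 10 nM, the same control siRNA at 100 nM, and a PAXIP1-AS1 siRNA at 100 nM, with 2 arrays in each. Per the labels the 2 arrays of a group are biological replicates, and nothing says whether they came from separate cultures. The p-values therefore measure the spread between these arrays, which may be partly technical. PAXIP1-AS1 was targeted by 1 siRNA only, and no siRNA sequence was at hand here. The cells were grown in low-glucose medium.

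Arrestin-fold proteins of this family sit on membranes and carry PPxY motifs that bind ubiquitin ligases of the NEDD4 family. Through them, transporters and receptors are ubiquitinated and moved from the cell surface into endosomes. TXNIP also binds and inhibits thioredoxin, limits glucose uptake by promoting the internalisation of glucose transporters, and is switched on by glucose through the transcription factor pair MondoA (MLXIP) and MLX, a response also described in kidney cells. ARRDC4 is a further glucose-responsive gene of this kind.

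The glucose switch acts through a carbohydrate response element, a pair of E-box-like sites separated by 5 bases. To show where such elements lie in the genes that changed most, the 250 bases before each annotated start were searched in RefSeq promoter sequences (GRCh38.p14), which held all 5 genes with 8 starts. Motifs were searched on both strands, and CACGTG can also fall on either site of the carbohydrate response element. The letters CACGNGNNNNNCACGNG were found before 1 of the 8 starts, that of TXNIP, and before 16 of 35116 starts of all genes (0.0456%). These letters ask for CACGNG at both sites in the same orientation. The share is that of this narrow form, and a start without a match may hold another form of the element. The palindromic E-box CACGTG occurred before ARRDC4 and before 6.34% of all starts. The forkhead motif GTAAACA, bound by FOXO factors, occurred before TXNIP and the second start of ARRDC3, and before 2.98% of all starts, and CCAAT before 5 of the 8 starts and 32% of all. Capitals mark these motifs in the stretches below, which are written 5′ to 3′ on the strand of the gene. They lie at chr1:145996630-145996729 (minus strand, bases -150 to -51 from the start), chr15:97960483-97960642 (plus strand, -220 to -61) and chr5:91380111-91380140 (minus strand, -43 to -14).
TXNIP: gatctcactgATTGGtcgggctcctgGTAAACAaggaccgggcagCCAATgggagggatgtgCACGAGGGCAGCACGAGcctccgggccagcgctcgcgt
ARRDC4: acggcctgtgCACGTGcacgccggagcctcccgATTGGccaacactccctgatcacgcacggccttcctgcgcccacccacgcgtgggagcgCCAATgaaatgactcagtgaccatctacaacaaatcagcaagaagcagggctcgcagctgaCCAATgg
ARRDC3: gacagcccggcactTGTTTACcacggcgcg
A match describes the letters in these windows and shows no binding.

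**Figure D1:**
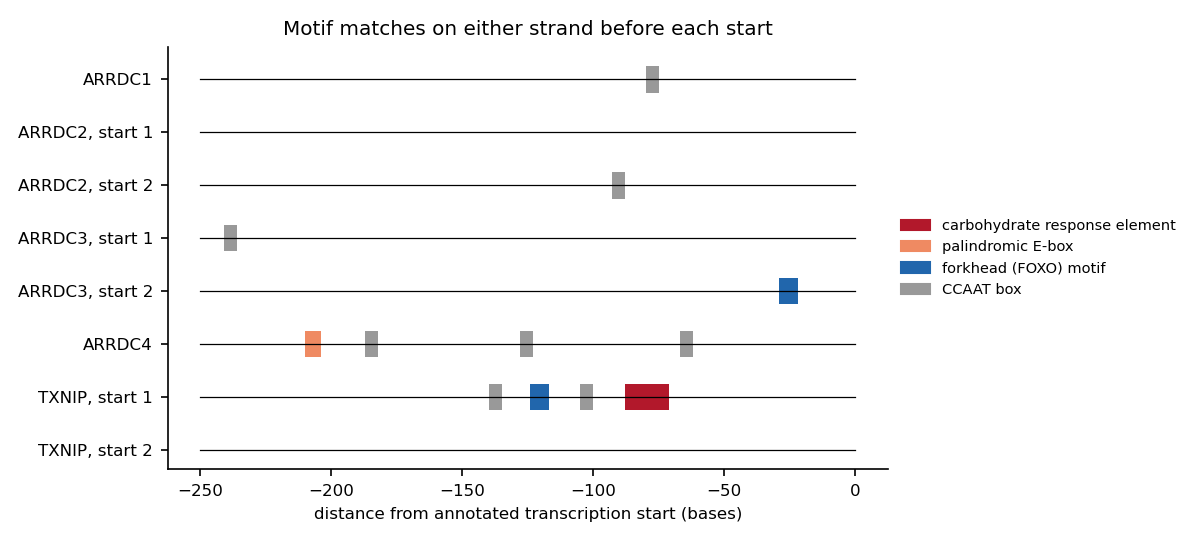
Motif matches on either strand in the 250 bases before each annotated start of the 5 genes (x axis, distance from the start in bases). The carbohydrate response element lies at bases -88 to -72 of the first TXNIP start, and the forkhead motif at -124 to -118 there and at -29 to -23 of the second ARRDC3 start.

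Across all genes, the limma fit called 28.8% of 18404 genes with LOC440173 siRNA 1, 30.0% with siRNA 2, 37.1% between the 2 siRNAs, 4.62% with the PAXIP1-AS1 siRNA and 0 between the control doses (692 at an unadjusted p under 0.05). A gene is named called here when its adjusted p was under 0.05. The median change over all genes lay between -0.05 and 0.05 in these comparisons. The targeted LINC02893 (LOC440173) stood at 8.54 in its control, 7.58 with siRNA 1 and 6.65 with siRNA 2 (log2 group means), while the level of PAXIP1-AS1 was not analysed here. Of 9 genes used as HEK-293 markers, 6 lay above the median gene, among them VIM and the neuronal filament genes INA, NEFM and NEFL, and PAX2, LHX1 and KRT8 lay below it. Mean marker levels per array were 9.02 to 9.33 for this list and 4.41 to 6.21 for lists of hepatocyte, blood cell, fibroblast and keratinocyte genes, where COL1A1 alone of 18 genes lay above the median gene.

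ARRDC3 binds integrin beta-4 and sends it for degradation, and is known as a regulator of energy expenditure. With LOC440173 siRNA 1 its level was 7.60 and 7.39 (log2, 2 arrays) and with siRNA 2 it was 10.12 and 10.31. The 10 nM control arrays stood at 8.65 and 8.83. Both siRNA groups were separate from the control and lay on opposite sides of it.
Against the control the log2 fold change was -1.24 (SE 0.12) with siRNA 1, which is 42.2% of the control, and 1.48 (SE 0.12) with siRNA 2, a 2.78-fold level. Among all genes this was rank 67 of the falls with siRNA 1 and rank 9 of the rises with siRNA 2. Between the 2 siRNAs ARRDC3 differed 6.59-fold (log2 2.72, SE 0.12). Over the 10 arrays its range was 2.92 log2 units, the sixth widest of all genes. Both siRNA contrasts use the same 2 control arrays. Over the 19 alternatives, each array left out in turn included, the change lay between -1.35 and -1.14 with siRNA 1 and between 1.38 and 1.57 with siRNA 2. Alternatives that change only the error could not move these estimates. Since these values chose the set, the ranges are a description and show no stability.

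The 100 nM groups took no part in the choice of ARRDC3, and no change was called there. The 100 nM control arrays stood at 8.58 and 8.88, and those of the PAXIP1-AS1 siRNA at 8.80 and 8.87, which overlap. The change with the PAXIP1-AS1 siRNA was 0.10 (95% interval -0.18 to 0.39, limma adjusted p = 0.753), and that between the control doses -0.01 (-0.29 to 0.28). In the order of group means, siRNA 2 came highest and siRNA 1 lowest, each at least 1.24 log2 units from its neighbour, and the 3 groups between them overlapped.

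**Figure D2:**
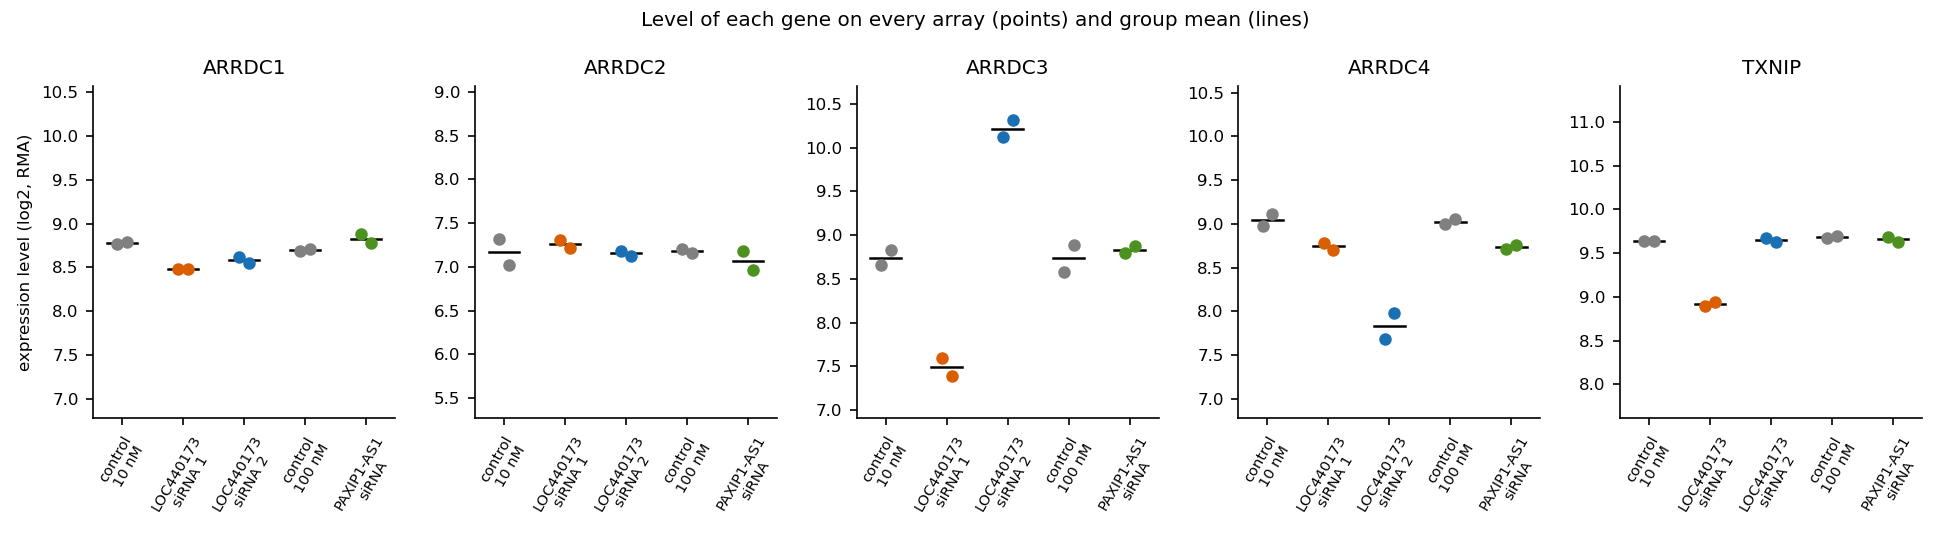
Expression level (y axis, log2 after RMA) of each gene on every array, with 2 points per siRNA group and a line at the group mean. Each panel spans the same number of log2 units. ARRDC3 lies at 7.39 to 7.60 with siRNA 1 and 10.12 to 10.31 with siRNA 2, ARRDC4 is lowest with siRNA 2, and TXNIP is lowest with siRNA 1.

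ARRDC4, which like TXNIP restrains glucose uptake, fell with siRNA 2. Its control arrays at 10 nM stood at 8.97 and 9.12, and those of siRNA 2 at 7.68 and 7.98. The 2 siRNA 2 arrays were the lowest of all 10 and clear of every other. This is a change of -1.21 on the log2 scale (SE 0.098, adjusted p = 8.52e-05 by limma), or 43.2% of the control, rank 105 of the falls. ARRDC4 was called in all 19 alternatives, with adjusted p from 2.64e-07 to 0.00854.
With siRNA 1 the arrays stood at 8.79 and 8.70, below both controls, and the change of -0.30 (SE 0.098) missed the threshold (adjusted p = 0.0548). It was called in 6 of 19 alternatives (adjusted p from 0.0155 to 0.237), among them the fits without either array of siRNA 2 (0.0155 each). Set directly against siRNA 1, siRNA 2 gave -0.91 (SE 0.098, adjusted p = 0.000191), so the 2 siRNAs differed in ARRDC4 beyond the spread of the arrays.

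With the PAXIP1-AS1 siRNA no change of ARRDC4 was called after adjustment. Its arrays stood at 8.71 and 8.76, against 8.99 and 9.05 in the 100 nM control. The change was -0.29 (95% interval -0.52 to -0.06, unadjusted p = 0.0190), which did not pass the adjustment over all genes (0.159). The control doses differed by -0.02 (-0.25 to 0.21). In the order of means both controls came highest and overlapped, siRNA 1 and PAXIP1-AS1 followed and overlapped, and siRNA 2 lay 0.90 below them.

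TXNIP, the inhibitor of thioredoxin, fell with siRNA 1. Its level there was 8.90 and 8.94, against 9.64 and 9.64 in the 10 nM control. With siRNA 2 the arrays stood at 9.67 and 9.62, on either side of the control values. With siRNA 1 it changed by -0.72 on the log2 scale (SE 0.049, adjusted p = 4.62e-05 by limma), or 60.8% of the control, and with siRNA 2 it was 0.01 (95% interval -0.11 to 0.12, adjusted p = 0.930).
The 2 siRNAs differed by 0.73 (SE 0.049, adjusted p = 1.85e-05), and TXNIP was called in all 19 alternatives for siRNA 1 (adjusted p up to 0.00394) and for this contrast (up to 0.00164). At 100 nM the control arrays stood at 9.67 and 9.70 and the PAXIP1-AS1 arrays at 9.68 and 9.63. The 2 groups overlapped, with a change of -0.03 (95% interval -0.14 to 0.08, adjusted p = 0.828), and the control doses differed by 0.05 (-0.07 to 0.16). The 4 groups other than siRNA 1 lay within 0.05 log2 units of each other in their means, and siRNA 1 lay 0.72 below the nearest.

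TXNIP and ARRDC4 thus took different places with the same 2 siRNAs. With siRNA 1 TXNIP changed by -0.72 and ARRDC4 by -0.30, and with siRNA 2 TXNIP changed by 0.01 and ARRDC4 by -1.21. ARRDC3 went with TXNIP in having its lowest level with siRNA 1, and ARRDC4 had its lowest with siRNA 2, where ARRDC3 was highest. These contrasts share their control arrays.

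ARRDC1 recruits the ESCRT protein TSG101 to the plasma membrane and drives the release of small vesicles from it. Its levels were 8.76 and 8.79 in the 10 nM control, 8.48 and 8.48 with siRNA 1 and 8.61 and 8.55 with siRNA 2. Both LOC440173 siRNA groups lay below the control arrays. By limma the change was -0.29 (SE 0.054, adjusted p = 0.00489) with siRNA 1, called in all 19 alternatives, and -0.19 (SE 0.054, adjusted p = 0.0280) with siRNA 2.
The call with siRNA 2 was the least stable of the members' calls: it was lost without control 10 nM replicate 1 (adjusted p = 0.0664) or 2 (0.0920) and without siRNA 2 replicate 2 (0.135), and held in 12 of 19 alternatives (range 0.00576 to 0.149). The 2 siRNAs differed by 0.10 (95% interval -0.03 to 0.22, adjusted p = 0.204). At 100 nM ARRDC1 stood at 8.69 and 8.71 in the control and at 8.88 and 8.78 with the PAXIP1-AS1 siRNA. The change of 0.13 (95% interval 0.01 to 0.26) had an unadjusted limma p of 0.0426 and an adjusted p of 0.251. The control doses differed by -0.08 (-0.20 to 0.05).

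The neighbouring antisense gene ARRDC1-AS1, named after its values were seen, overlaps the end of ARRDC1 on the opposite strand of chromosome 9. With siRNA 2 it fell by 0.34 on the log2 scale (SE 0.051, adjusted p = 0.00154), and the value with siRNA 1 was 0.12 (0.126). Whether their probe sets share sequence was not checked.

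ARRDC2 is the least studied of the 4 ARRDC genes and is known to rise with glucocorticoids in muscle. It was the dimmest of the probe sets, at a mean of 7.17 against a median of 7.66 over all genes, so a change in it may be understated. The 10 nM control arrays stood at 7.31 and 7.02, siRNA 1 at 7.30 and 7.22, and siRNA 2 at 7.19 and 7.12. Both siRNA groups lay within the spread of the control.
The 100 nM control stood at 7.20 and 7.16 and the PAXIP1-AS1 siRNA at 7.18 and 6.96, which overlap. ARRDC2 was called in no comparison, with changes of 0.09 (95% interval -0.15 to 0.34) with siRNA 1, -0.01 (-0.26 to 0.23) with siRNA 2 and -0.11 (-0.36 to 0.13) with the PAXIP1-AS1 siRNA, and adjusted p of 0.540, 0.941 and 0.655. The control doses differed by 0.01 (-0.23 to 0.26).

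**Figure D3:**
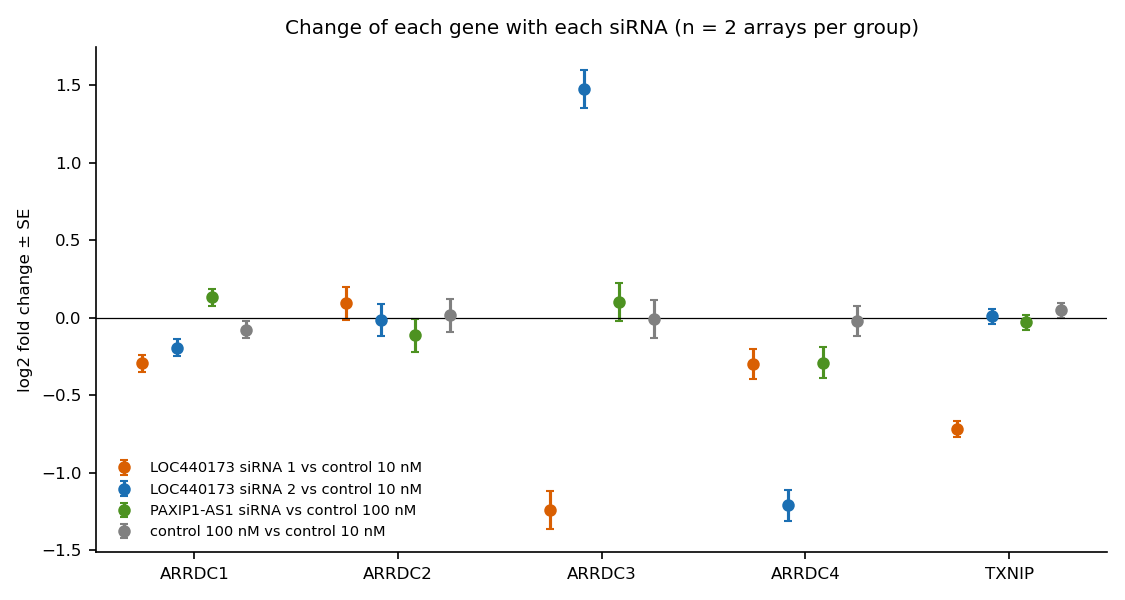
Log2 fold change (y axis, points) of each gene with its standard error (bars) in 4 comparisons, 2 arrays per group. ARRDC3 lies at -1.24 with siRNA 1 and 1.48 with siRNA 2, ARRDC4 at -1.21 with siRNA 2, TXNIP at -0.72 with siRNA 1, and the changes between control doses lie between -0.08 and 0.05.

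Counted together, 3 of the 5 genes were called lower with siRNA 1 and 0 higher, against 28.8% of all genes called in either direction. With siRNA 2, 1 was called higher and 2 lower, against 30.0%, and between the 2 siRNAs 2 were higher and 1 lower, against 37.1%. Since ARRDC3 chose the set in these comparisons, the counts are a description, and without it 2 of 4 genes were called in each. The median of the 5 was -0.30 with siRNA 1 and -0.01 with siRNA 2, beside 0.05 and 0.01 over all genes. With the PAXIP1-AS1 siRNA limma called 0 of 5 (2 at an unadjusted p under 0.05), against 4.62% of all genes, with a median of -0.03. The control doses called 0 of 5 members as well, and 0 had an unadjusted p under 0.05.

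The ubiquitin ligases that alpha-arrestins recruit were measured next to them. Over all genes, 28.8% were called with siRNA 1, 30.0% with siRNA 2 and 4.62% with the PAXIP1-AS1 siRNA. The medians over all genes were 0.05, 0.01 and -0.01. These values stand beside each partner list from here on, and the counts of the lists are a description. Of 11 genes for NEDD4-family ligases and their adaptors, 0 were higher and 3 lower with siRNA 1 (median 0.08), 4 higher and 2 lower with siRNA 2 (median 0.02), and 0 higher and 1 lower with the PAXIP1-AS1 siRNA (median 0.06). ITCH and NEDD4, the ligases best known as partners of TXNIP and ARRDC3, were not called with any of the 3 (changes of -0.01 to 0.13). The adaptor NDFIP2 (-0.83) and the ligase HECW2 (-0.77) fell with siRNA 1, while with siRNA 2 the ligase WWP1 rose (0.83) and the adaptor NDFIP1 fell (-0.70). The ligase NEDD4L fell with siRNA 1 (-0.34) and rose with siRNA 2 (0.30). WWP2 fell with siRNA 2 (-0.26, adjusted p = 0.00649) and with the PAXIP1-AS1 siRNA (-0.35, adjusted p = 0.0121).

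Genes around TXNIP in glucose and redox control followed. MLXIP, which encodes MondoA, fell with siRNA 1 (-0.51, SE 0.084, limma adjusted p = 0.00291) and differed by -0.22 (adjusted p = 0.0898) with siRNA 2. TXNIP fell with siRNA 1 and ARRDC4 fell most with siRNA 2, and a link of MLXIP to either was not tested. MLX, the partner of MLXIP, fell by 0.23 with siRNA 2 (adjusted p = 0.0290). MLXIPL, the related factor ChREBP, fell (-0.46 and -0.22) and FOXO4 rose (0.40 and 0.26) with both LOC440173 siRNAs. NR3C1 fell with siRNA 1 (-0.33, limma adjusted p = 0.0126) and rose with siRNA 2 (0.34, adjusted p = 0.0101). Of the 7 glucose-sensing and FOXO transcription factors 1 was higher and 3 lower with siRNA 1 (median 0.10), 2 higher and 2 lower with siRNA 2 (median -0.08), and 0 of 7 were called with the PAXIP1-AS1 siRNA. TXN, the thioredoxin that TXNIP binds, had changes of -0.19 (siRNA 1, adjusted p = 0.165) and 0.23 (siRNA 2, 0.102) and was higher with siRNA 2 than with siRNA 1 (0.42, adjusted p = 0.00745). In the thioredoxin list 0 of 8 measured genes were called with siRNA 1 (median -0.01) and 2 with siRNA 2, where the reductase TXNRD1 (0.44) and the peroxiredoxin PRDX3 (0.22) rose.

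Membrane proteins described as cargo of these arrestins include glucose transporters and receptors. With siRNA 1, 2 of 9 measured genes were higher and 5 lower (median -0.30), with siRNA 2, 1 was higher and 5 lower (median -0.25), and with the PAXIP1-AS1 siRNA 0 were higher and 1 lower (median 0.04). The glucose transporter SLC2A1, a cargo of TXNIP, fell with both LOC440173 siRNAs (-0.49 and -0.64, adjusted p = 0.000326 and 8.21e-05) and differed by 0.23 with the PAXIP1-AS1 siRNA (0.0507). The transporter SLC2A3 rose with siRNA 1 (0.58) and fell with siRNA 2 (-0.48), and NOTCH1, a cargo of ARRDC1, fell with all 3 siRNAs (-1.04, -0.44 and -0.33). The insulin receptor gene INSR fell with both LOC440173 siRNAs (-0.46 and -0.25).

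Of the ESCRT and vesicle release list, 6 genes were measured. Among them 3 were higher with siRNA 1 (median 0.35), 2 with siRNA 2 (0.14) and 2 with the PAXIP1-AS1 siRNA (0.16), and 0 were lower. The ATPase VPS4A rose with all 3 siRNAs (0.78, 0.82 and 0.96) while TSG101 was not called with any (0.15, 0.07 and 0.04). VPS4B, the paralogue of VPS4A, rose with siRNA 1 (0.93) and the PAXIP1-AS1 siRNA (0.57) and was not called with siRNA 2 (-0.04, adjusted p = 0.822). Of 12 FOXO and fasting-type targets 2 were higher and 4 lower with siRNA 1 (median 0.01). With siRNA 2, 4 were higher and 1 lower (median 0.07), and with the PAXIP1-AS1 siRNA 2 were called each way (median -0.03). KLHL24 (1.24 and 0.83) and the sestrin SESN3 (0.31 and 0.94) rose with both LOC440173 siRNAs. The pseudokinase TRIB1 fell with siRNA 1 (-0.73) and rose with siRNA 2 (0.29). TSC22D3 (-0.59) and SESN1 (-0.40) fell with siRNA 1 and were not called with siRNA 2 (-0.03 and -0.19). DDIT4, a brake on mTOR signalling, fell with siRNA 1 (-0.29, adjusted p = 0.0226) and rose with siRNA 2 (0.66). With the PAXIP1-AS1 siRNA DDIT4 (0.99) and SESN3 (0.32) rose and TRIB1 fell (-0.33). Of 6 measured other arrestin-fold genes, 1 was higher and 2 lower with siRNA 1 (median 0.10), and 2 higher and 0 lower with siRNA 2 (median 0.09). With the PAXIP1-AS1 siRNA 0 of 6 were called (median -0.07). The beta-arrestin ARRB1 fell with siRNA 1 (-0.80) and differed by -0.02 with siRNA 2 (limma adjusted p = 0.863). VPS26C, a subunit of the retriever complex, rose with both LOC440173 siRNAs (0.36 and 0.41).

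**Figure D4:**
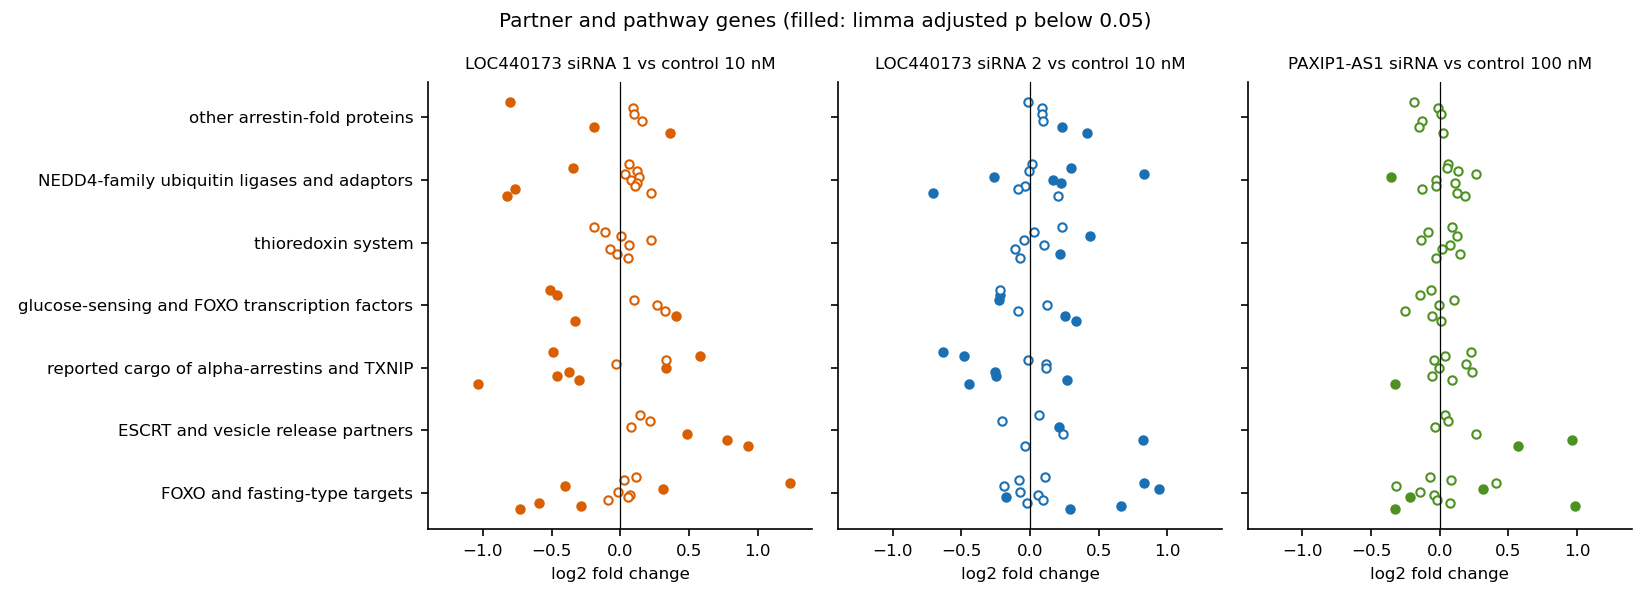
Log2 fold change (x axis) of partner and pathway genes in 7 lists (rows) with each siRNA, 1 point per gene, filled where the limma adjusted p was under 0.05. The cargo list has 5 genes called lower with each LOC440173 siRNA, and VPS4A lies at 0.78, 0.82 and 0.96 in the ESCRT row.

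Genes whose pattern was most like that of a member were sought among those at or above the median level. The measure was the root mean square (RMS) difference from the member over the 10 arrays, after subtracting each gene's own mean, in log2 units. The same arrays picked the genes, so their changes describe the pattern and are no separate evidence for it. Nearest to ARRDC3 were GDE1 (0.335), the AMP-activated kinase subunit PRKAB2 (0.337), the taurine transporter SLC6A6 (0.342), the transcription factor FOXP2 (0.346) and the cystathionine enzyme CTH (0.373), against an RMS spread of 0.868 for ARRDC3 about its own mean. GDE1 changed by -1.24 with siRNA 1 and 0.69 with siRNA 2, so its rise was smaller than that of ARRDC3. With the sign turned, the neuropeptide gene CALCB (0.271) and the focal adhesion protein TES (0.289) came nearest, followed by YPEL3 (0.350), IFITM1 (0.373) and ENTPD7 (0.376). CALCB changed by 0.90 with siRNA 1 and -1.89 with siRNA 2.

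TXNIP had closer neighbours. The secretory cargo receptor TMED10 lay 0.0233 from it and changed by -0.74 with siRNA 1 and -0.01 with siRNA 2, the disulfide isomerase PDIA6 lay 0.0339 from it, and the mitochondrial carrier SLC25A13 lay 0.0507 from it. The spread of TXNIP about its own mean was 0.296. Nearest to ARRDC4, which had a spread of 0.449, were the glutathione transferase GSTM2 (0.0772), the matrix protein SPARC (0.0864) and SCCPDH (0.0965). These genes fell by 1.21, 1.25 and 1.03 on the log2 scale with siRNA 2, which follows from the way they were picked. The lists of neighbours of the 3 genes did not overlap, which follows from the differing patterns of the 3 genes and adds nothing to them.

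**Figure D5:**
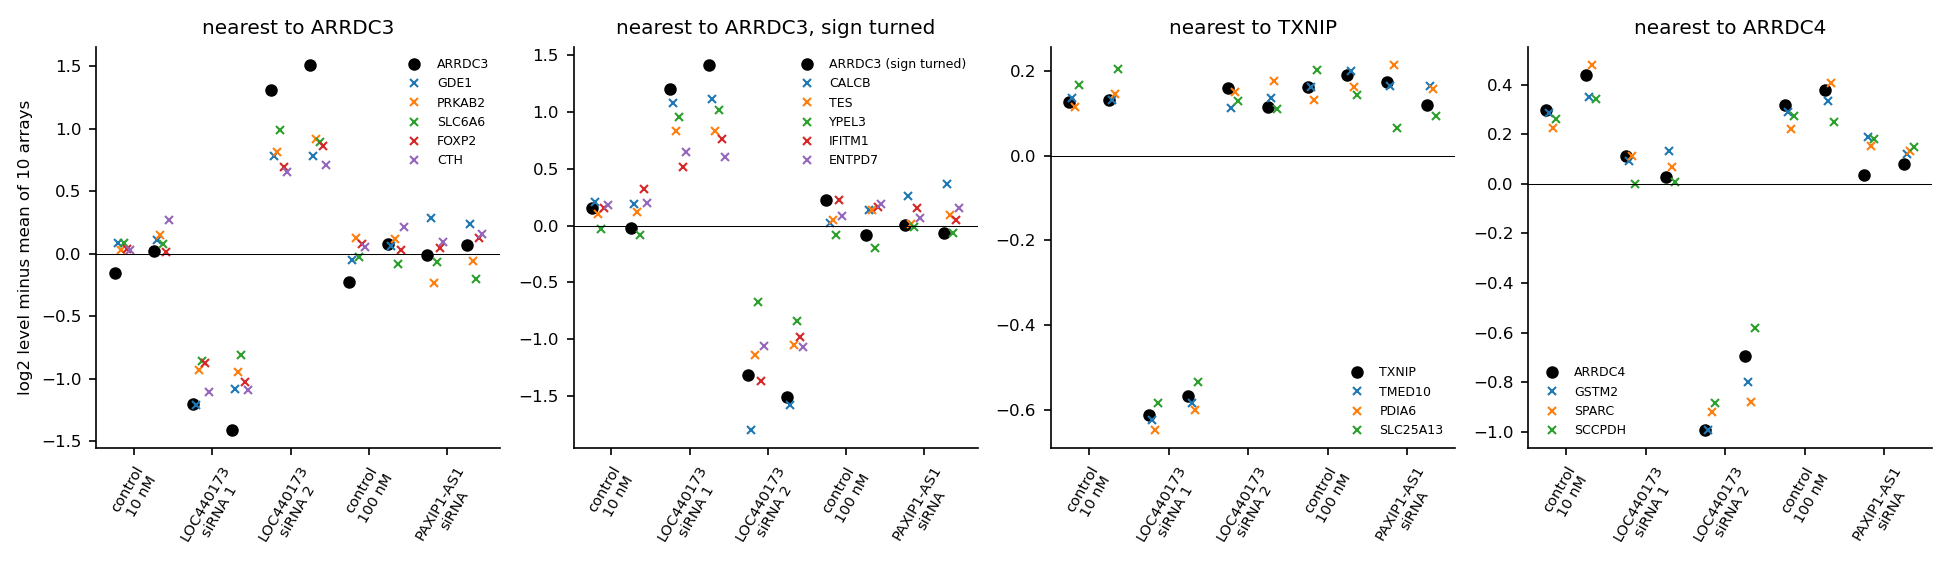
Level minus the mean of 10 arrays (y axis, log2) for ARRDC3, TXNIP and ARRDC4 (black points) and the genes with the smallest RMS difference from them (crosses), 2 arrays per group along the x axis. TMED10 lies 0.0233 from TXNIP, while the gene nearest to ARRDC3, GDE1, lies 0.335 from it.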

How the data were processed

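Gene expression was measured on 10 Affymetrix arrays of HEK-293 RNA. The deposited values were log2 levels, 1 column per array, made by the authors with RMA, which includes background correction and quantile normalization. RMA and limma are named in the submitters' processing notes without versions. The genome build, filters and array definition file were not stated, that is, not given in the sources used here. Scanner intensities were not used, so the level above background is unknown, and the number of arrays limits the precision. No further scaling was applied (array medians 7.06 to 7.12).

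The platform annotation gave 1 gene symbol for 19158 probe sets, several for 1388 and none listed for 11775. The probe set with the highest mean stood for a gene. All 10 arrays entered 1 limma fit (version 3.58.1, R 4.3.3) with a mean per group and eBayes (5 residual and 2.87 prior degrees of freedom), with two-sided p-values adjusted by Benjamini-Hochberg over 18404 genes. The smallest p of an exact permutation test is 0.333 at this group size, so calls rest on the pooled spread. The code was tested on simulated data.

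Named genes were the members, the target, up to 4 genes of each partner list per comparison, from the called genes with the largest change (their values in other comparisons are given where called), preset partners (among them TXN, SLC2A1, MLXIP, ITCH, NEDD4 and TSG101) and the genes nearest in pattern. The members and lists were chosen with earlier results of these data known. A withheld item is not reported here. Promoter sequences and start sites came from RefSeq (GRCh38.p14). The alternatives were a repeated quantile normalization, median centring, the mean of all probe sets, each probe set on its own, dim genes left out, only the compared groups, a trend with a robust prior, array weights, a block on the replicate number, and fits that leave out single arrays.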

Additional observations from a re-analysis of the deposited data

How the results depend on the processing

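For the 5 members in 5 comparisons, 457 of 470 alternative values kept their side of the threshold, or for ARRDC3 with the LOC440173 siRNAs moved by less than 1 SD, and 0 reversed a call. The other 13 were ARRDC1 with siRNA 2 and ARRDC4 with siRNA 1, and their cause was not tested. Alternatives that change only the error or the probe sets used could not move the estimates. For ARRDC3 with the LOC440173 siRNAs, which has no test, such values were fixed in advance and show no stability. The total above still holds these ARRDC3 values, as well as comparisons in which no member was called. Its share is therefore no measure of how stable the calls were. ARRDC1 with siRNA 2 was not called after repeated quantile normalization (log2 fold change -0.15), with every probe set on its own (-0.19), only the compared groups (-0.19) or array weights (-0.19), and ran from -0.23 to -0.16 with each array left out. ARRDC4 with siRNA 1 was called with arrays centred on the median (-0.33), dim genes left out (-0.30), a trend and robust prior (-0.30) and the replicate block (-0.30, adjusted p = 0.0302), and ran from -0.37 to -0.23 with each array left out. ARRDC2 had no value with dim genes left out. Fitted on the compared groups alone, 3494 genes were called with siRNA 1, 2788 with siRNA 2 and 181 with the PAXIP1-AS1 siRNA. The PAXIP1-AS1 count was 432 with every probe set on its own, 1879 with dim genes left out, 1784 with a trend and robust prior, 1325 with the replicate block and 1544 with array weights, and 110 to 895 with each array left out: 117 and 110 without its replicates 1 and 2, 135 and 187 without those of its control, and 477 without either array of siRNA 1. With each array left out the siRNA 1 count was 3294 to 5663, lowest without siRNA 1 replicate 1 and at 3423 without replicate 2. No alternative called a member with the PAXIP1-AS1 siRNA or between control doses. Same-numbered arrays deviated together in part (correlation across genes 0.0677 to 0.529 over 10 pairs, median 0.309), and the numbers are not said to mark a shared batch, so the blocked fit stands here alone. The members' precision is limited by 2 arrays per group.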
